A study of Homo sapiens with 61 samples.

Results

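RNA of untreated neurons that lacked the kinase DLK was compared with RNA of untreated wild-type (WT) neurons made from the same human stem cell line, with 4 libraries in each group. These are 8 of the 61 libraries of the series. The comparison covers every gene that passed a filter on low counts, which was 18235 of the 58440 gene identifiers counted. They were described in 3 groups by position on GRCh38, namely 546 genes on chromosome 2 between 120 and 240 Mb, 920 genes on chromosome 5, and 16769 genes in the rest of the genome.

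The neurons were made from WTC11, a widely used human line of induced pluripotent stem cells, whose cells carried a doxycycline-driven NGN2 cassette that turns stem cells into excitatory neurons, called cortical in the labels. The lines of this experiment were WT, a knockout (KO) of DLK, a knockout of LZK and a knockout of both (double KO). Untreated cultures received the vehicle DMSO for 16 hours, and matched cultures received 5 nM vincristine, a drug that breaks up microtubules. The age of the cultures is given as day 14 in the study's design and as 10 to 14 days in its protocol. The sequencing libraries held poly(A) RNA and kept the strand. Each genotype was represented by 1 line, and the sources used here do not say whether a line came from 1 clone, so effects of the deleted gene and other differences between the lines cannot be told apart. Nothing in the labels says that the 4 libraries of a group came from separate differentiations, so p-values measure the spread between these libraries, which may be technical.

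DLK, encoded by MAP3K12, and LZK, encoded by MAP3K13, are related kinases at the top of a cascade that runs through MAP kinase kinases to the JNK kinases. JNK phosphorylates the transcription factors JUN and ATF2, which belong to the AP-1 and ATF families. These factors bind short DNA elements that are palindromic or nearly so, among them elements in the promoter of JUN itself. In neurons the cascade responds to damage of the axon or its microtubules, and it is known for its part in axon regeneration, axon degeneration and neuronal death.

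Total counts ran from 8.77 to 10.69 M in the DLK KO libraries and from 10.08 to 14.65 M in WT. Mitochondrial transcripts took 7.14% to 8.79% of counts over the 8 libraries, and the ranges of the groups overlapped. The TMM scaling factors did not overlap, at 1.062 to 1.082 in DLK KO and 0.948 to 1.004 in WT. The first principal component held 60.85% of the variance and separated the 2 groups, and every pair of replicates differed by more than sampling noise. Of 15 neuronal markers all 15 passed the filter, and their summed level was 16490 to 17990 CPM in DLK KO and 16830 to 17810 in WT (CPM, counts per M of library total after TMM scaling). The like sums hide opposite changes. By the test described below 6 of the 15 were lower in DLK KO and 3 higher, beside 17.9% and 16.5% of all genes. Their median log2 fold change was -0.19. NEFM, which was higher, made up a large part of the sum in both groups. Of the factors of cortical neurons, EMX1 did not pass the filter, and TBR1 stood at 2.69 CPM in DLK KO and 0.57 in WT, while POU4F1, a factor of sensory neurons, stood at 193 and 435 CPM.

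The targeted gene was lower in every DLK KO library. MAP3K12 (ENSG00000139625.12, chromosome 12, 53479669 to 53500063) stood at 23.7, 25.9, 25.8 and 29.7 CPM in the DLK KO libraries and at 89.8, 94.3, 90.2 and 89.7 CPM in WT. The groups did not overlap, and 28.9% of the WT level remained, a log2 fold change of -1.79 ± 0.11 (SE, adjusted p 2.84e-16). These values are of transcript, not of protein. In bulk RNA, fewer cells of a type and less RNA per cell cannot be told apart. The paralogue MAP3K13 (ENSG00000073803.13, chromosome 3, 185282941 to 185489097) stood at 106 ± 3.43 CPM (SD, n = 4) in DLK KO and 99.1 ± 1.93 in WT, a log2 difference of 0.09 ± 0.06 that was not called (adjusted p 0.223).

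Called here means an adjusted p under 0.05 over all 18235 genes in the quasi-likelihood test of edgeR, and a gene rose or fell only where it was called. By that rule 6284 genes, 34.5% of those tested, differed between untreated DLK KO and WT, of which 3017 rose (16.5%) and 3267 fell (17.9%). At least 2-fold differences were held by 722 of the risen and 903 of the fallen genes, and for 5521 of the called genes the libraries of the 2 groups did not overlap.

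Several AP-1 and ATF factors fell in DLK KO, while others rose or were not called. JUN (ENSG00000177606.6, chromosome 1, 58780788 to 58784327) stood at 48.2, 57.9, 60.6 and 54.4 CPM in DLK KO and at 140.2, 150.6, 138.3 and 131 CPM in WT. Every DLK KO library lay below every WT library, a log2 fold change of -1.34 ± 0.14 (adjusted p 5.82e-09). ATF3, an ATF family member induced by stress and axon injury, stood at 4.97, 5.98, 4.60 and 3.66 CPM in DLK KO and at 15.1, 14.9, 13.9 and 12.5 CPM in WT (-1.55 ± 0.14, adjusted p 1.603e-11). CREB5, a relative of ATF2, had the largest fall of the family, from 48.5 ± 3.17 to 11.0 ± 2.57 CPM (SD, n = 4), a log2 fold change of -2.13 ± 0.12. JDP2, a dimer partner of JUN, fell by 1.29 on the log2 scale and JUND by 1.03.

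Short elements of the kind these factors bind were searched in the promoters of the family, because JUN and ATF3 fell together. The search covered the 250 bases before the start of each gene in the RefSeq promoter table (GRCh38.p14), on both strands, for TGACGTCA (the cyclic AMP response element), TGACATCA (the variant of the JUN promoter) and TGAGTCA (the AP-1 site). Of the 20 family members tested 18 had a promoter in the table and 5 held an element. The sites of 4 members that fell are printed with their flanks, 5′ to 3′ on the strand of the gene, with the element in capitals. None of the 3 patterns contains another.
JUN, chr1:58784096-58784125, minus strand: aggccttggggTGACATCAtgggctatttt
ATF3, chr1:212565273-212565302, plus strand: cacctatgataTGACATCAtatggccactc
JUND, chr19:18281804-18281833, minus strand: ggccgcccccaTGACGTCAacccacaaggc
ATF5, chr19:49928707-49928736, plus strand: ggagagtgctgTGACTCAtgctggactcta
The ATF5 site shows the AP-1 element as its reverse complement. The fifth site, a cyclic AMP response element 54 bases before the start of MAFF, belongs to a gene that was not called (0.19, adjusted p 0.4537). The variant of the JUN promoter was in 1.45% of the 11273 promoters of tested genes, in 2.47% of the promoters of called lower genes in the rest of the genome, and in 1.35% of those of called higher genes. For the cyclic AMP response element these shares were 2.86%, 3.08% and 2.4%, and for the AP-1 site 2.37%, 3.2% and 2.15%. A match is a description of these letters, not of binding.

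Of the 20 AP-1, ATF and CREB factors tested, 9 fell, 3 rose and 8 were not called, where 17.9% of all genes fell and 16.5% rose. Their median log2 fold change was -0.19 beside 0.009 over all genes. Outside the lower segments of chromosomes 2 and 5 described below, 8 of 18 fell and 3 rose. FOS went the other way, from 1.72, 2.05, 2.32 and 2.38 CPM in WT to 4.02, 4.99, 4.07 and 4.41 CPM in DLK KO (1.03 ± 0.18), and CREM rose by 0.81. ATF2 (ENSG00000115966.16, chromosome 2, 175072250 to 175168382) stood at 77.8, 67.8, 73.8 and 64.5 CPM in DLK KO against 151.3, 149.4, 142.1 and 120.7 CPM in WT, a log2 fold change of -0.99 ± 0.11. It lies on the stretch of chromosome 2 from 120 to 240 Mb, where the median log2 fold change over 546 genes was -0.84. ATF2 stood at 148.2 ± 6.22 CPM (SD, n = 4) in double KO, with LZK KO at 164.8 ± 30.9. JUN stood at 39.6 ± 2.59 CPM in double KO, with LZK KO at 116 ± 13.3.

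**Figure D1:**
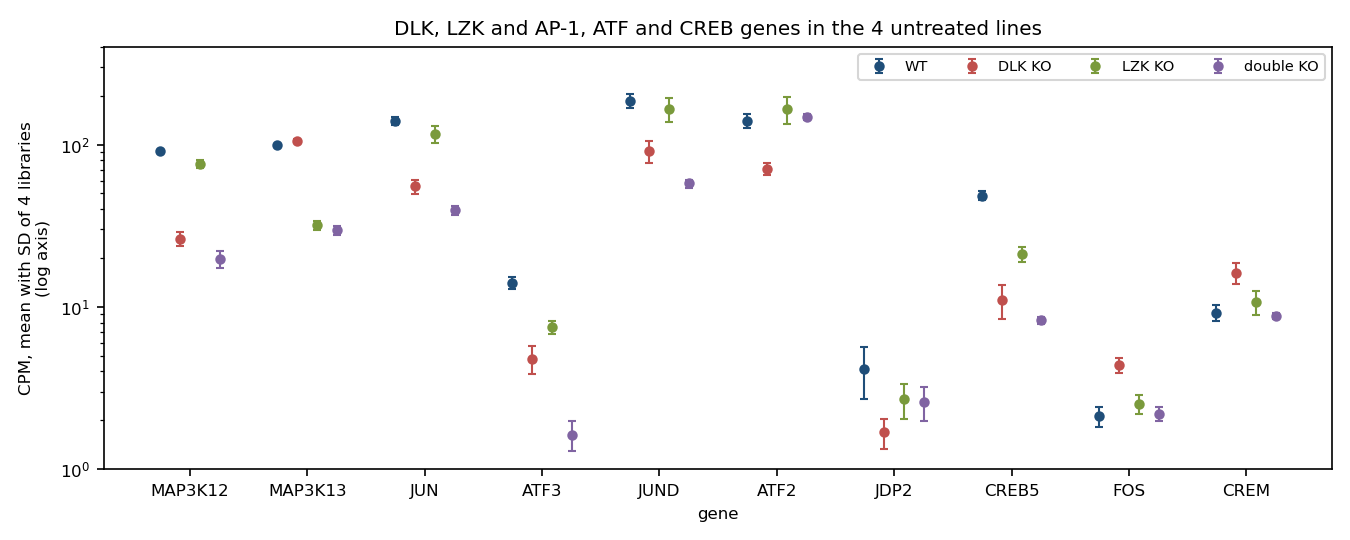
Mean level (CPM, log axis) with SD of 4 libraries in each of the 4 untreated lines, for DLK (MAP3K12), LZK (MAP3K13) and 8 AP-1, ATF and CREB genes. JUN, ATF3, JUND and CREB5 were lower in DLK KO and double KO than in WT, while ATF2 was lower in DLK KO (70.98 CPM) and not in double KO (148.2 CPM).

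Of the 20 kinases and scaffolds of the JNK cascade, 4 fell and 3 rose, shares near those of all genes. The fall was largest for MAP3K12 itself. MAPK8IP1, the JNK scaffold JIP1, fell from 189.7 ± 7.62 to 122.1 ± 12.6 CPM (-0.64 ± 0.14, adjusted p 0.00065). MAPK8IP2, the scaffold JIP2, fell by 0.53, a call that was lost without DLK KO replicate 1. SH3RF1, the scaffold POSH, rose by 0.55. Of the 13 MAP kinase phosphatases tested, which switch such cascades off, 4 rose and 5 fell, beside 16.5% and 17.9% of all genes. DUSP6, a phosphatase of ERK, rose from 42.0 ± 3.35 to 123 ± 7.42 CPM (1.55 ± 0.07), and the JNK and p38 phosphatases DUSP16 and DUSP8 fell by 1.11 and 0.80.

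Genes also moved by position. On chromosome 2 between 120 and 240 Mb, 364 of 546 genes fell, 26 rose and 156 were not called, with a median log2 fold change of -0.84, and 86.3% of the genes lay below 0. On chromosome 5, 352 of 920 genes fell and 100 rose, with a median of -0.22. In the rest of the genome 2551 of 16769 genes fell and 2891 rose, with a median of 0.03. Over the 21 other chromosomes, X included, the medians ran from -0.08 (chromosome 22) to 0.13 (chromosome 18).

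**Figure D2:**
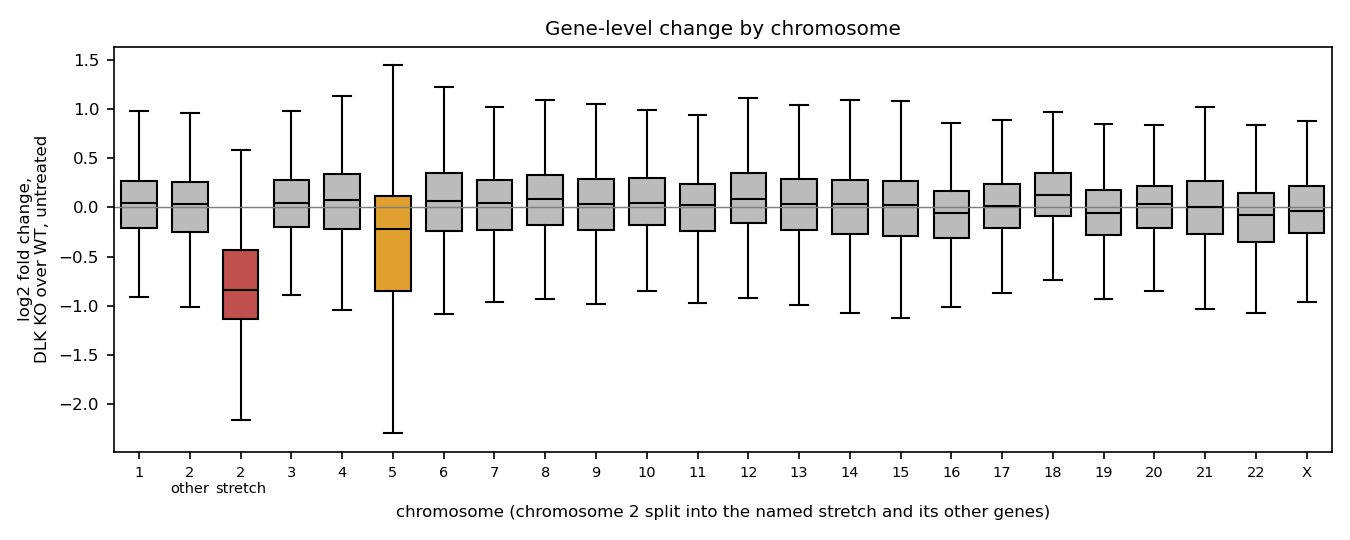
Log2 fold change of DLK KO over WT for the genes of each chromosome (box, quartiles with the median as a line; whiskers to the farthest gene within 1.5 box heights; genes beyond not drawn). The stretch of chromosome 2 (red) has its median at -0.836 and chromosome 5 (orange) at -0.222, with a long box towards lower values, while the other boxes are centred near 0.

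In bins of 10 Mb the boundary on chromosome 2 fell at 130 Mb. The bin from 120 to 130 Mb held 34 genes, of which 5 fell and 8 rose, with a median of 0.03, and the next bin had 29 of 42 genes fallen and a median of -0.89. From 130 Mb to the end of the chromosome, 384 of 540 genes fell, 18 rose, and the median was -0.87. That includes 28 genes beyond 240 Mb, of which 25 fell. The bins of this segment had medians from -0.53 (140 to 150 Mb, which held 14 genes) to -1.06.

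Chromosome 5 did not shift as a whole. It held 3 lower segments with unshifted stretches between them. From 0 to 20 Mb 62 of 78 genes fell and 0 rose, with a median of -1.04. From 52 to 92 Mb 123 of 183 genes fell and 4 rose (-0.82), and over the 8 Mb from 140 Mb on 72 of 123 fell and 6 rose (-0.74). Over the other 536 genes of chromosome 5 the median was 0.03, with 95 fallen and 90 risen. The bounds of these segments and of the segment from 130 Mb on chromosome 2 were chosen after the values were seen, so their counts are a description with no test.

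The shift was nearly the same in each library. The median log2 difference from the mean of WT, over genes of the chromosome 2 stretch, ran from -0.82 to -0.78 in the 4 DLK KO libraries and from -0.008 to 0.013 in the 4 WT libraries. For the lower segments of chromosome 5 it ran from -0.82 to -0.75 in DLK KO and from -0.005 to 0.021 in WT. The share of fallen genes on the chromosome 2 stretch grew with expression, from 35.2% in the lowest of 3 equal bins of mean level to 89.6% in the highest, while the median moved less, from -0.68 to -0.90.

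The same 2 lines were also compared in their vincristine libraries. The medians by bin of these libraries stood beside the untreated ones when the segment bounds were chosen. They are therefore no independent check of the bounds. In the vincristine libraries 7659 genes (42% of those tested) were called between DLK KO and WT. The segment on chromosome 2 had 417 of 540 genes fallen and a median of -0.96, and the segments of chromosome 5 had medians of -0.85, -0.97 and -1.02 in order. Of the 364 genes that fell on the chromosome 2 stretch in untreated cultures, 338 (92.9%) fell with vincristine, as did 294 of 352 (83.5%) on chromosome 5. In the rest of the genome 1351 of 2551 fallen genes (53%) and 1586 of 2891 risen genes (54.9%) were called in the same direction. A further 173 fallen and 155 risen genes were called in the opposite direction. The untreated median of these 2551 fallen genes was -0.54, against -0.98 for the 364 of the chromosome 2 stretch, so the shares compare changes of unlike size.

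The other knockout lines did not have the same shift. Against the same WT libraries, LZK KO had a median log2 fold change of 0.07 on the chromosome 2 stretch and 0.05 on chromosome 5, and double KO had 0.05 and 0.07. Over the lower segments of chromosome 5 in order, the medians were -0.08, 0.14 and -0.06 in LZK KO and -0.005, 0.10 and 0.46 in double KO, so that the median in the segment of the protocadherins lay above 0 in double KO. These comparisons share their WT libraries with that of DLK KO. Against LZK KO, DLK KO was called for 7014 genes (38.5%), and on the chromosome 2 stretch 376 genes were lower and 26 higher (median -0.90). Against double KO it was called for 8529 genes (46.8%), and there 406 were lower and 26 higher (median -0.90).

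**Figure D3:**
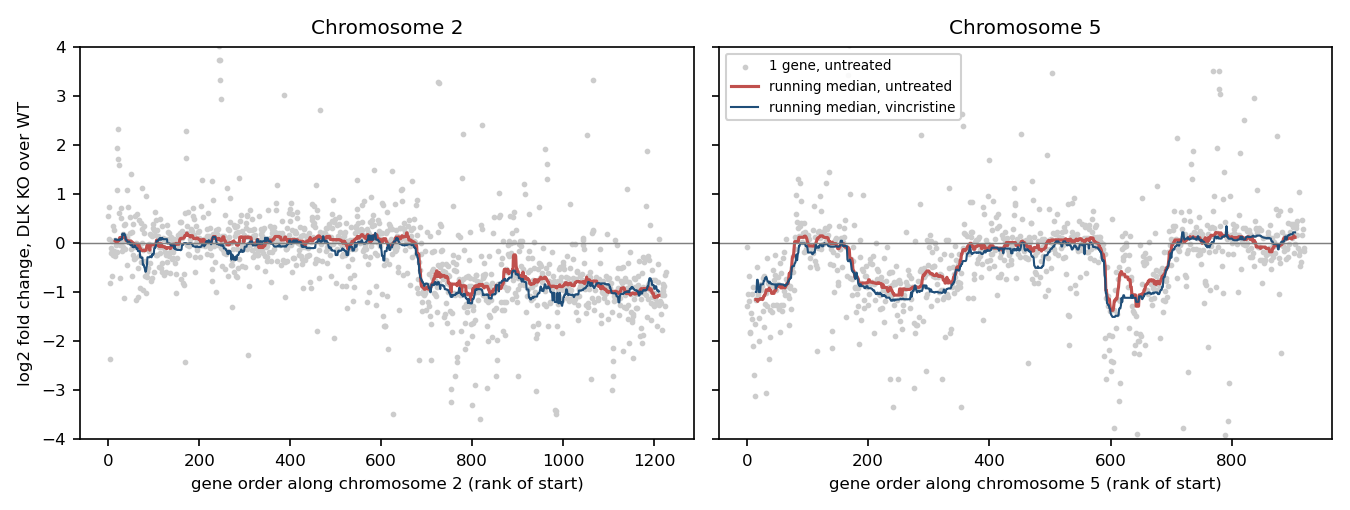
Log2 fold change of DLK KO over WT for genes in their order along chromosomes 2 and 5. Grey points are genes in untreated cultures (those beyond 4 in either direction not drawn), and lines are running medians over 31 genes, untreated in red and with vincristine in blue. Both lines step down once on chromosome 2 and stay near -0.9, and step down and back up 3 times on chromosome 5.

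Many well-known neuronal genes lie in the lower segments. KIF5C, a kinesin motor of axonal transport on chromosome 2, stood at 961, 982, 927 and 990 CPM in DLK KO and at 2773, 2713, 2706 and 2723 CPM in WT (-1.50 ± 0.06). KIF1A, the motor of synaptic vesicle precursors, lies just past 240 Mb and fell from 1495 ± 74.7 to 463 ± 55.2 CPM (-1.69 ± 0.18). MAP1B, an axonal microtubule-associated protein on chromosome 5 (72107234 to 72209570), fell from 13380 ± 314 to 5091 ± 315 CPM (-1.39 ± 0.06). These 3 falls were larger than the median of their segments.

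The sodium channel genes SCN1A, SCN2A, SCN3A, SCN7A and SCN9A, which lie side by side on chromosome 2 and were picked out after their values were seen, all fell, by 0.88, 1.28, 1.04, 1.90 and 1.64 in that order on the log2 scale. Among the growth genes of the segments, BASP1, a growth cone protein, fell from 891 ± 6.57 to 351 ± 36.7 CPM. ECEL1, an endopeptidase induced by nerve injury, fell from 4.50 ± 0.29 to 1.79 ± 0.16 CPM (n = 4). The mitochondrial chaperone HSPD1 on chromosome 2 fell by 1.25. Of the 84 ribosomal protein genes tested 9 fell, a smaller share than the 17.9% of all genes that fell, and their median was -0.07. The largest falls were of the 2 in the segments, RPL37A (-1.11) and RPS23 (-1.10).

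The lowest genes of the chromosome 2 stretch went far below its median. CFLAR, an inhibitor of caspase-8 (ENSG00000003402.19, 201116104 to 201176687), stood at 7.56, 8.78, 9.28 and 9.79 CPM in DLK KO against 98.6, 93.8, 86.7 and 98.4 CPM in WT (-3.41 ± 0.14, adjusted p 1.14e-20). It was as low in the other knockout lines, at 7.32 ± 1.86 CPM in LZK KO and 6.65 ± 1.08 in double KO (SD, n = 4), so the WT libraries stood apart from all 3. RPRM, a p53 target that halts the cell cycle, stood at 16.8, 16.6, 16.4 and 16.4 CPM in DLK KO against 153.8, 161.9, 164.6 and 145.2 CPM in WT (-3.24 ± 0.09). It was between these levels in LZK KO (40.4 ± 1.05) and double KO (41.0 ± 2.56).

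EPHA4, a receptor for ephrins in axon guidance, fell from 206 ± 10.8 to 25.7 ± 2.33 CPM (-3.00 ± 0.07), while it stood at 352 ± 12.5 CPM in LZK KO and 114 ± 2.02 in double KO. NABP1, a single-strand DNA binding protein, and DUSP19, a phosphatase of the JNK cascade, fell by 3.02 and 2.71. Against the run of the stretch, IGFBP5, a binding protein of insulin-like growth factors, rose from 1.24 ± 0.49 to 12.2 ± 1.79 CPM (3.33 ± 0.25). CXCR4, a chemokine receptor of migrating neurons, rose by 3.28 from 0.352 ± 0.211 CPM, and FN1 (fibronectin) by 2.20. CYP27C1, which rose by 1.26, lies before 130 Mb. IGFBP5 stood at 47.0 ± 5.38 CPM in double KO and 1.26 ± 0.72 in LZK KO.

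On chromosome 5 the third lower segment holds the clustered protocadherins, neuronal adhesion proteins whose alternative first exons share a common end. Of 51 tested, 37 fell and 2 rose, beside 17.9% and 16.5% of all genes, and their median was -1.29. The whole segment, these genes included, had 72 of 123 genes fallen and a median of -0.74. Effects of family and of position were not told apart. The protocadherin genes overlap and share exons, so the split of reads among them is uncertain. PCDHGA7 stood at 0.191, 0.399, 0.354 and 0.108 CPM in DLK KO and at 14.4, 17.1, 13.6 and 16.4 CPM in WT (-5.78 ± 0.27). PCDHGA6 fell by 3.89 and PCDHB5 by 3.21. Members differed among the lines: PCDHGA7 stood at 0.463 ± 0.247 CPM in LZK KO but 14.1 ± 2.65 in double KO, and PCDHB5 at 23.3 ± 1.20 and 83.0 ± 3.41 CPM.

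Elsewhere on chromosome 5, MCCC2, a subunit of an enzyme of leucine breakdown (71587288 to 71658704), fell from 22.0 ± 0.774 to 1.15 ± 0.579 CPM (-4.25 ± 0.16). Levels of 15.6 ± 1.67 and 14.1 ± 1.23 CPM were found in LZK KO and double KO. The zinc finger gene ZNF300 fell by 3.77. The 5 genes that rose most on chromosome 5, among those with a mean log2 CPM of at least 1, all lay outside its lower segments. The bounds of those segments were chosen after the values were seen, so this is a description. ISL1, a LIM homeobox factor of motor and sensory neurons, stood at 21.7, 21.7, 20.7 and 17.9 CPM in DLK KO and at 1.05, 1.31, 1.48 and 0.993 CPM in WT (4.05 ± 0.15). Its neighbour AC010478.1, an antisense transcript that ends beside it in the annotation, rose by 3.70. ISL1 stood at 0.434 ± 0.281 CPM in LZK KO and 66.3 ± 1.10 in double KO.

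TENM2, a teneurin adhesion protein, rose from 7.74 ± 0.72 to 68.6 ± 5.25 CPM (3.15 ± 0.09) and was higher still in LZK KO (155 ± 16.8) and double KO (137 ± 5.62). FSTL4 and the netrin receptor UNC5A rose by 3.46 and 2.97. GABRB2, a subunit of the GABA-A receptor, rose from 0.384 ± 0.169 to 4.66 ± 1.10 CPM (3.52 ± 0.29).

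In the rest of the genome several genes were almost silent in DLK KO. ZNF471, a zinc finger repressor (ENSG00000196263.7, chromosome 19, 56507843 to 56530221), had 2 counts over the 4 DLK KO libraries and 484 over the 4 WT libraries. That is a ratio of 218.6 per scaled library total (95% exact interval 60.18 to 1810, which covers counting error only). ZDHHC4, a palmitoyltransferase (ENSG00000136247.14, chromosome 7, 6577434 to 6589374), had 2 counts against 462, a ratio of 208.6 (57.43 to 1728). ZNF471 was also low in LZK KO, at 2.37 ± 0.73 CPM, and stood at 16.1 ± 1.45 in double KO, whereas ZDHHC4 stood at 11.2 ± 0.965 and 7.53 ± 1.11 CPM in those lines and 10.2 ± 0.936 in WT.

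REC8, a cohesin subunit of meiosis, stood at 0.765, 0.499, 0.442 and 0.215 CPM in DLK KO and at 15.6, 16.4, 18.6 and 18.8 CPM in WT (-5.12 ± 0.23). ZNF528-AS1 fell by 5.71, TVP23A, a membrane protein of the Golgi, by 4.11, ZC3HAV1L by 3.56, ZFR2 by 3.37, TCEAL7 by 3.31 and the long non-coding RNA HCG11 by 3.28. KCNC2, a subunit of fast delayed-rectifier potassium channels, stood at 6.41, 6.78, 6.10 and 7.53 CPM in DLK KO and at 58.1, 55.4, 59.0 and 56.0 CPM in WT (-3.09 ± 0.10). It was at a like level in LZK KO (8.54 ± 1.00) and double KO (6.76 ± 0.43), so that the WT libraries again stood apart from the 3 knockout lines.

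Among genes with a mean log2 CPM of at least 1, those that rose most included developmental transcription factors and a peptide. EN1, a homeobox factor of the midbrain and hindbrain (ENSG00000163064.6, chromosome 2, 118842171 to 118847678), stood at 14.6, 13.9, 16.4 and 10.9 CPM in DLK KO and at 0.0956, 0.186, 0.351 and 0.298 CPM in WT (5.79 ± 0.26). The peptide somatostatin, SST, stood at 9.09, 11.3, 8.49 and 10.1 CPM in DLK KO and at 0.287, 0.466, 0.141 and 0.0994 CPM in WT (5.26 ± 0.25). ZIC1, a factor of the dorsal neural tube, rose from 0.917 ± 0.251 to 25.0 ± 1.44 CPM (4.71 ± 0.21).

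CADPS2, which primes dense-core vesicles for release, rose from 1.56 ± 0.554 to 52.8 ± 7.54 CPM (5.07 ± 0.18). Its level was 0.582 ± 0.261 CPM in LZK KO, with 1.19 ± 0.468 in double KO, and that of ZIC1 was 1.64 ± 0.641 and 0.138 ± 0.117 CPM. The long non-coding RNA LINC01833 rose by 3.74, the interleukin-4 receptor IL4R by 3.71, the photoreceptor gene EYS by 3.69 and the antisense RNA TBX5-AS1 by 3.61. AL592183.1, on an unplaced scaffold, rose by 3.81, from 5 counts in all in WT to 70. Reads of antisense genes are uncertain here, since the strand setting of the counting is not given in the sources used here.

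**Figure D4:**
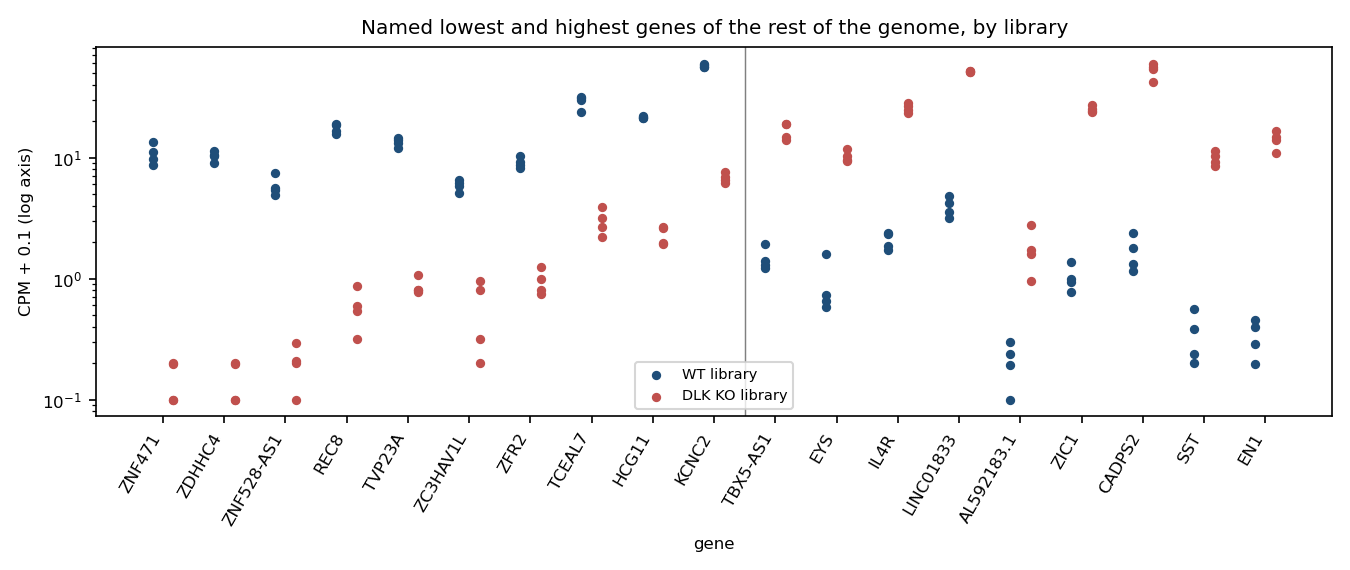
Level (CPM plus 0.1, log axis) in each untreated library for the 19 genes named with the lowest (left, 10) and highest (right, 9) log2 fold change in the rest of the genome, WT in blue and DLK KO in red. The 4 libraries of each group lie apart for every gene, since that was a condition of the choice, and the genes on the right are below 5 CPM in all 4 WT libraries.

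Of the 40 genes named by size of change, the DLK KO libraries alone stood apart from those of the other 3 untreated lines for 17 and the WT libraries alone for 9. Both did so for 4, and neither for 10. These genes were chosen for a gap between DLK KO and WT, so the counts are a description.

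The summed levels of most lists of markers of other cell types did not overlap between the groups, and those of the oligodendrocyte lineage did. Of 11 neural progenitor markers 7 rose and 3 fell, beside 16.5% and 17.9% of all genes. The 3 that fell carry most of the level: NES (nestin) went from 718 ± 19.8 to 226 ± 29.0 CPM, SOX2 from 22.4 ± 1.99 to 5.30 ± 1.36 and VIM (vimentin) from 51.9 ± 3.32 to 33.3 ± 2.77. The summed level of the list was 240 to 309 CPM in DLK KO and 784 to 830 CPM in WT. Those that rose, such as SOX1, stayed below 5 CPM.

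Over all genes 16.5% rose and 17.9% fell. Of 5 tested markers of pluripotent stem cells 3 rose and 0 fell, LIN28A among them from 1.88 ± 0.485 to 7.40 ± 1.60 CPM. The summed level of all 10 was 76.9 to 85.9 CPM in DLK KO and 53.2 to 60.6 in WT, with TDGF1 and ZFP42 at 0 in every DLK KO library. Of 12 markers of dividing cells 4 rose and 8 were not called (summed level 51.5 to 56.9 against 39.6 to 42.3 CPM), with MKI67 at 8.88 ± 0.526 against 4.83 ± 0.740. Mesenchymal markers, 10 in all, summed to 14.0 to 21.2 against 5.83 to 8.99 CPM. The 8 inhibitory neuron markers summed to 7.51 to 9.37 against 3.63 to 5.37 CPM, with DLX5 at 0 in every DLK KO library. Epithelial markers summed to 8.99 to 13.1 against 7.46 to 8.84 CPM, the oligodendrocyte lineage to 24.9 to 27.4 against 23.4 to 26.4, and astrocyte markers to 262 to 275 against 292 to 312. The part of these cells in the gene groups that follow was not tested.

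Of 68 transcription factors tested that mark kinds of neurons 26 rose, 20 fell and 22 were not called, where 16.5% of all genes rose and 17.9% fell. Beside EN1, SIX6, a homeobox factor of the retina and hypothalamus, rose from 0.152 ± 0.200 to 6.21 ± 0.348 CPM (5.06 ± 0.39).

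Of 11 markers of peripheral and cholinergic neurons 5 rose and 3 fell, beside 16.5% and 17.9% of all genes. Their summed level was lower in DLK KO, at 306 to 358 against 509 to 544 CPM. That sum was carried by POU4F1, a factor of sensory neurons, which fell from 435 ± 14.8 to 193 ± 20.4 CPM (-1.17 ± 0.12). The sensory factor TLX3 fell by 2.85, while ISL1 and PHOX2A rose. Of 24 neuropeptides and granins 7 rose and 8 fell, beside 16.5% and 17.9% of all genes. NTS (neurotensin) rose from 2.22 ± 0.604 to 24.6 ± 1.61 CPM (3.43 ± 0.24) and PENK (proenkephalin) from 0.677 ± 0.223 to 6.66 ± 1.30 (3.27 ± 0.27).

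Genes of the cytoskeleton fell by less but in larger shares. Of 48 tubulins and neuronal microtubule-associated proteins 32 fell and 2 rose (median -0.32). Outside the lower segments 27 of 42 fell and 2 rose (-0.30), beside 15.2% of all 17311 genes outside them that fell and 17.3% that rose, whose median was 0.03. MAP7, a cofactor of kinesin on chromosome 6, fell from 45.0 ± 6.16 to 18.6 ± 2.62 CPM (-1.27 ± 0.13). TUBB3, the neuronal beta-tubulin, fell by 0.48.

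Over all genes 17.9% fell and 16.5% rose. Of 13 neurofilament and axonal spectrin genes 9 fell, among them the heavy neurofilament NEFH (-1.20 ± 0.15) and ANK2 (-0.80 ± 0.07), and 2 rose. NEFM, the medium neurofilament, was one of them, at 8377, 8549, 7903 and 8866 CPM in DLK KO against 6085, 5980, 6411 and 6563 CPM in WT (0.43 ± 0.09), and PRPH, peripherin, rose by 1.21. Of 30 genes of axon growth and regeneration 19 fell and 6 rose (-0.37), and outside the lower segments 14 of 25 fell. CSRP1 fell from 5.77 ± 0.794 to 0.456 ± 0.131 CPM (-3.61 ± 0.29). SOX11, a transcription factor of young neurons that is tied to axon growth, rose from 103 ± 4.41 to 394 ± 35.5 CPM (1.94 ± 0.11).

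Of 47 genes of the synaptic vesicle and its release machinery 26 fell and 4 rose (-0.32), beside 17.9% and 16.5% of all genes. NRXN3, a presynaptic adhesion protein, fell from 85.6 ± 11.9 to 18.4 ± 1.63 CPM (-2.22 ± 0.10), the vesicle protein SV2B from 184 ± 4.85 to 74.6 ± 2.96 (-1.31 ± 0.07), and SLC17A6, a vesicular glutamate transporter, from 299 ± 17.2 to 171 ± 4.85 (-0.81 ± 0.08). SLC17A7, the vesicular glutamate transporter typical of cortex, rose from 28.5 ± 2.43 to 42.6 ± 1.64 CPM (0.58 ± 0.10). RAB3B rose by 1.11. Of 58 voltage-gated channels 27 fell and 14 rose (-0.37). Outside the lower segments 20 of 50 fell and 13 rose, where 15.2% and 17.3% of all genes did so. Beside KCNC2, which fell, the calcium channel genes CACNA1G and CACNA2D3 rose by 2.16 and 2.20.

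Of 43 transmitter receptors 16 rose and 13 fell (0.19), beside 16.5% and 17.9% of all genes. Beside GABRB2, the kainate receptor subunit GRIK4 rose from 1.63 ± 0.208 to 11.6 ± 1.83 CPM (2.82 ± 0.18), and GRIA1, an AMPA receptor subunit on chromosome 5, from 10.6 ± 1.90 to 38.8 ± 5.18 (1.88 ± 0.11). Of 68 axon guidance genes 18 rose and 19 fell, again beside 16.5% and 17.9% of all genes. The semaphorin SEMA3C rose by 1.78. UNC5A also rose, while EPHA4 fell.

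Cholesterol synthesis and uptake was the list with the largest fallen share. Of 26 genes tested 24 fell and 0 rose, beside 17.9% and 16.5% of all genes, and their median was -0.78. Outside the lower segments 23 of the 25 fell, where 15.2% of all genes did. SREBF1, a master regulator of lipid genes, fell by 1.30 and the enzymes MVD and FASN by 1.29 and 1.28. FASN stood at 338, 333, 534 and 519 CPM in DLK KO and at 1057, 1143, 1048 and 948 CPM in WT, so that the DLK KO libraries fell into 2 pairs that were both below WT. With vincristine 3 of the 26 were lower and 12 were higher in DLK KO than in WT, beside 21.4% and 20.6% of all genes. The effect of the line differed between the treatments for 24 of the 26, in a test of that difference that called 3531 of all genes (19.4%).

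Of 24 genes of the integrated stress response and amino acid synthesis 12 fell and 1 rose (-0.36), beside 17.9% and 16.5% of all genes. SLC7A1, an arginine transporter, fell from 128 ± 5.11 to 71.7 ± 5.51 CPM (-0.83 ± 0.09), and TRIB3, a pseudokinase induced by the response, fell by 0.80. With vincristine all 24 were lower in DLK KO than in WT, beside 21.4% of all genes. CEBPB fell by 0.79, a call lost without WT replicate 2. Of 34 heat shock proteins and chaperones 16 fell and 3 rose (-0.18), and outside the lower segments 13 of 31 fell, where 15.2% of all genes did.

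Of 22 genes of the BCL2 family and caspases 5 fell, 3 rose and 14 were not called (-0.006), shares near the 17.9% and 16.5% of all genes that fell and rose. HRK, a BH3-only killer protein induced by JNK signalling in neurons, stood at 8.13, 9.77, 6.45 and 7.21 CPM in DLK KO and at 44.2, 44.5, 38.4 and 46.6 CPM in WT (-2.46 ± 0.14, adjusted p 1.69e-16). It was 14.6 CPM in LZK KO and 3.42 in double KO. BOK, on chromosome 2, fell by 1.77 and BMF rose by 0.84. BIK had 2 counts in all in WT and 61 in DLK KO, a ratio of 33.8 (95% exact interval 8.96 to 285). Of 19 p53 targets 4 fell and 3 rose, again near the shares of all genes, with the death receptor TNFRSF10B down from 6.41 ± 1.12 to 1.61 ± 0.248 CPM (-1.98 ± 0.20) and BBC3 (PUMA) by 0.61, a call lost without DLK KO replicate 2 or WT replicate 1. Of 17 activity-induced early genes 6 rose and 2 fell, beside 16.5% and 17.9% of all genes, with NR4A1 and BDNF up by 1.65 and 1.37.

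**Figure D5:**
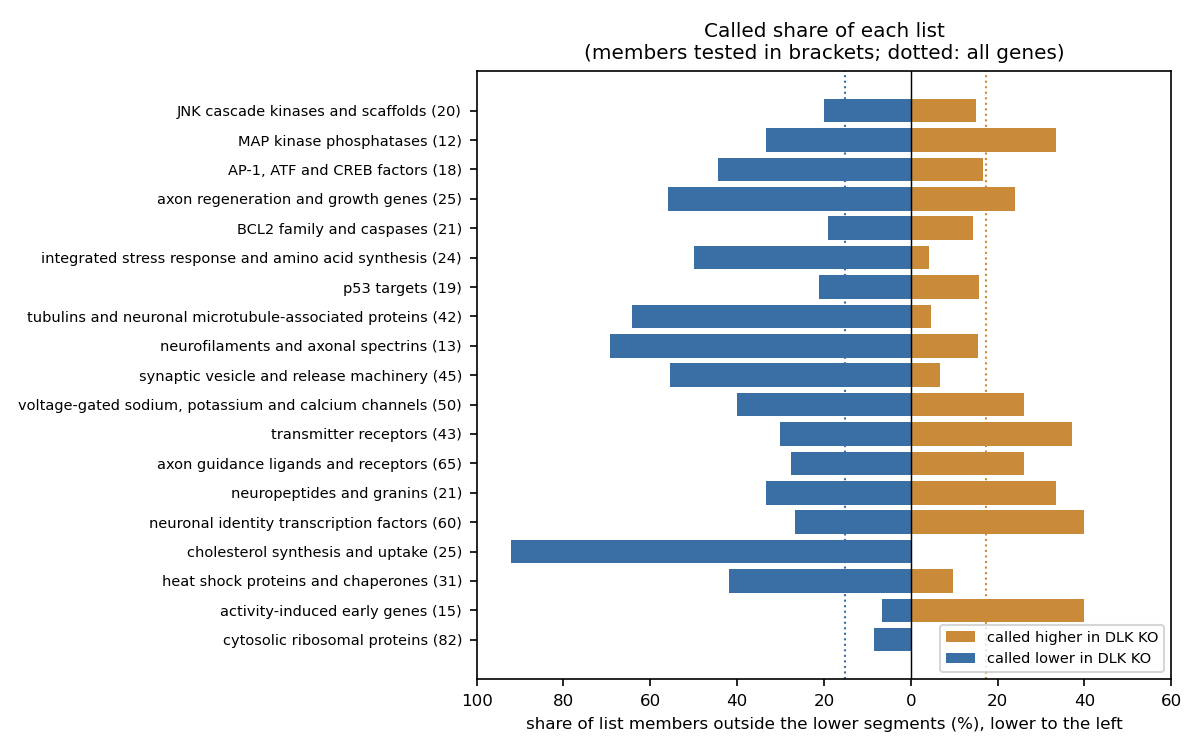
Share of the members of each list, outside the lower segments of chromosomes 2 and 5, that were called higher (right) or lower (left) in untreated DLK KO against WT, with the number tested in brackets. Dotted lines give the shares over all 17311 genes outside those segments, 17.3% higher and 15.2% lower, and cholesterol synthesis and uptake reaches farthest to the left.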

How the data were processed

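RNA was measured in 8 untreated libraries, 4 of DLK KO and 4 of WT, fitted with the other 24 libraries of the experiment. The values are raw counts per gene deposited by the authors as whole numbers. Per the submitters' processing notes, reads were trimmed with cutadapt 3.4, aligned with STAR to GRCh38 and counted with featureCounts of Subread 2.0.1, and per the file headers duplicates were marked. The sources used here do not give the strand setting, nor if marked duplicates entered the counts. Of 58440 identifiers, 56933 had the same version and start in GENCODE 29, which gave positions, and 58320 were matched to a symbol. All count columns were matched to samples by name.

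Genes were filtered with filterByExpr, scaled with TMM factors and tested with edgeR 4.0.16 (glmQLFit, robust, and glmQLFTest; R 4.3.3) in 1 fit of all 32 libraries as 8 groups. P-values are 2-sided, with Benjamini-Hochberg adjustment across the genes tested and a threshold of 0.05. Each SE was derived from the F statistic, as the size of the log2 fold change over its root. The main comparisons were DLK KO against WT, untreated and with vincristine, and untreated DLK KO against LZK KO and double KO. The difference between treatments was tested as an interaction term.

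Named are the targeted genes, JUN and ATF2, and, among called genes with a mean log2 CPM of at least 1 and groups that do not overlap, the 10 lowest and 10 highest of the rest of the genome and the 5 lowest and 5 highest of the chromosome 2 stretch and of chromosome 5. In each list up to 4 called members with the largest change and members that define the list are named; further members are examples picked after their values were seen. Some genes that this rule names are not reported here. The lists and the comparison were chosen with earlier results of these data known.

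Alternatives were DESeq2 1.42.0, RLE factors, TMM factors from genes outside chromosome 2 from 120 to 240 Mb and chromosome 5, omitting the filter, filtering at a mean of 1 CPM, blocking on the replicate number, fitting only the groups compared, limma 3.58.1 voom with quality weights, leaving out each library, and, added after seeing the data, offsets for GC content. The fit was tested on simulated data. Figures were drawn with matplotlib in Python.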

Additional observations from a re-analysis of the deposited data

Results flagged for a closer look

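Among 90 groups of 4 libraries checked, 4 had a library far from the other 3, and about 1 in 20 would do so by chance. WT replicate 2 held MAP3K12 at 94.3 CPM (others 89.7 to 90.2) and PCDHB5 at 41.1 CPM (others 45.5 to 46.2). DLK KO replicate 4 held TVP23A at 0.968 CPM (others 0.67 to 0.707). WT replicate 4 held EYS at 1.49 CPM (others 0.478 to 0.632). In each case the gap between DLK KO and WT was far wider than the distance of that library.

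The difference between DLK KO and WT changed with vincristine for 7 of the 42 genes checked (edgeR interaction term, adjusted over all genes). The same test called 19.4% of all genes, so these genes did not stand out by their number. The log2 fold change with vincristine minus that without was 1.00 for LINC01833 (adjusted p 0.00236), -0.73 for IL4R (0.0363), 0.95 for RPRM (9.73e-08), 0.79 for EPHA4 (8.92e-08), 1.75 for IGFBP5 (0.0236), -1.10 for FSTL4 (0.000155) and -0.55 for TENM2 (0.00226). The direction of the difference was the same with and without the drug for all 7.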

How the results depend on the processing

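The counts of called genes over all genes in the main comparisons stayed within 1.5 times their values under every alternative run. So did those of the 3 groups by position for untreated DLK KO against WT. Counts within the gene lists were made again only with GC offsets. There the fallen ribosomal protein genes went from 9 to 4, and the fallen genes of cholesterol synthesis and uptake from 24 to 25. The median on chromosome 5, which mixes shifted and unshifted segments, moved from -0.22 to -0.24 with TMM factors from genes outside the stretches, -0.47 with no filter, -0.20 with the filter at 1 CPM, -0.23 with the replicate block, -0.21 with voom, -0.19 with only the groups compared, and ran from -0.25 to -0.20 when 1 library was left out. The median on the chromosome 2 stretch was -1.005 with no filter and ran from -0.84 to -0.81 when 1 library was left out. With no filter the median of all genes moved to -0.15. The cause of these moves was not tested. Replicate numbers did not pair the libraries (correlations of same-numbered deviations from -0.023 to 0.027), and the block changed no count over all genes or by position by more than 1.5 times. The alternatives followed 139 named genes, all called but MAP3K13. Of them 129 kept direction and their state as called or not under every alternative in which they were tested. The other 10 lost the call in at least 1: BBC3, CEBPB, EPCAM and POSTN without single libraries, MAPK8IP2 and SLC1A2 with no filter or without a DLK KO library, CALCB with voom, CDK1 with voom or without a library, RPL28 with GC offsets or without a library, and SLC1A3 in 7. No direction reversed. Genes of a few counts, such as ZNF471, ZDHHC4 and BIK, are limited by depth.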
